A study of Mus musculus with 3 samples.

Results

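The transcripts of 8 pancreatic digestive enzymes were examined in spleen RNA: the proteases Ctrb1, Cela3b and Cpa1, the lipases Pnliprp2 and Cel with the lipase cofactor Clps, the amylase Amy2a5 and the ribonuclease Rnase1. Their probes were taken by gene symbol from the platform annotation, which assigns 27 of the 16273 probes in the table to them: 9 to Ctrb1, 8 to Clps, 4 to Cela3b, 2 to Rnase1 and 1 each to Cpa1, Pnliprp2, Cel and Amy2a5. The annotation gives a RefSeq transcript for 1 of these probes, on Cela3b, and a cDNA record for the other 26. The series holds 3 arrays, each hybridised in 2 colours, that form 1 group. On each, cRNA from purchased mouse spleen total RNA was labelled with the red dye Cy5 and cRNA from the Universal Mouse Reference RNA, a purchased pool of RNA from mouse cell lines, with the green dye Cy3, each after a single round of amplification. The labels give no strain, age, sex or number of animals for the spleen RNA, and each RNA carries 1 product number throughout, so the arrays may repeat the same extracts, and p-values cover array-to-array variation and no variation between animals.

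Acinar cells of the pancreas make and store digestive enzymes in zymogen granules and release them into the gut, where proteases cut proteins, lipases with their cofactor cut fats, amylase cuts starch and ribonuclease cuts RNA. Most of the proteases are made as inactive precursors. The transcription factor complex PTF1, which holds the acinar regulator Ptf1a, binds many acinar enzyme promoters at an E-box next to a second, TTTCCC-like box. The pancreas lies beside the spleen in the abdomen, and its tail reaches the splenic hilum.

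The RefSeq table (build GRCm38.p6) held all 8 genes and placed them on 8 different chromosomes. Promoters were available for 7 of them and the 250 bases before each annotated start were searched on both strands for the E-box CANNTG and for TTTCCC. Of 27025 mouse promoters, 66.0% held the E-box, 21.9% held TTTCCC and 3.79% held a pair of both motifs without overlap and at most 20 bases apart. Among the 7 enzyme promoters, 6 held the E-box, and TTTCCC and the pair were each found in 3, those of Ctrb1, Cpa1 and Cel. Of 15 promoters of other pancreatic digestive enzymes, 2 held the pair. The 3 promoters with the pair are printed because their genes span the range of the ratios described next, and that of Rnase1 is printed because it held neither motif and belongs to a gene with one of the highest ratios. Capitals mark the pair, and each line runs 5′ to 3′ on the gene's strand and ends at the base before the start.
Ctrb1, chr8:111691011-111691260, minus strand: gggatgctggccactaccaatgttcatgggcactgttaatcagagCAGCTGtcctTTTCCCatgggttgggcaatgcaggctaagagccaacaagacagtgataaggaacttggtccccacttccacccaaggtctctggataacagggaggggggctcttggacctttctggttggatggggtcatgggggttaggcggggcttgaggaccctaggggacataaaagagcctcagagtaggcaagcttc
Cpa1, chr6:30638968-30639217, plus strand: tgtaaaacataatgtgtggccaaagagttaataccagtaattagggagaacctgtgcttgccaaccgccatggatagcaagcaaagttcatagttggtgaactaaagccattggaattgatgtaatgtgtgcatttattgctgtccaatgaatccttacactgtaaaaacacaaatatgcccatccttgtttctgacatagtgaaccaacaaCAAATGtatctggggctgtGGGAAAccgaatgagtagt
Cel, chr2:28563404-28563653, minus strand: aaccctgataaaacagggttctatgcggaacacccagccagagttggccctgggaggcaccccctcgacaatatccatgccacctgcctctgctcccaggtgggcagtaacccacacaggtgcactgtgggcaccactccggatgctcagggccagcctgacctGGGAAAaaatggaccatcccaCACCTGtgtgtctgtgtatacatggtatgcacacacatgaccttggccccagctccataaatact
Rnase1, chr14:51146768-51147017, minus strand: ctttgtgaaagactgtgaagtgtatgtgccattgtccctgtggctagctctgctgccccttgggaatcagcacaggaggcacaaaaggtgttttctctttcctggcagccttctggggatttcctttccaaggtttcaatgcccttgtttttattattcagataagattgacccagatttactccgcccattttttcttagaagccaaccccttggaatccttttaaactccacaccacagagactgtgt
In Ctrb1 the motifs were CAGCTG and TTTCCC, 4 bases apart, with the E-box beginning 205 bases before the start. In Cpa1 they were CAAATG and GGGAAA, the reverse complement of TTTCCC, 13 bases apart and 38 and 19 bases before the start. In Cel they were CACCTG and GGGAAA, 15 bases apart, and lay 65 and 86 bases before the start. A match in these letters is a description of the window and not of a bound site.

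A value in the table is a signed log ratio whose base and numerator are not stated. Positive was read as more RNA in spleen, which is likely and not settled: the labels put spleen in the red channel, and ratios are usually formed as red over green, but the titles place the reference ahead of spleen. Without a labelled dye swap, dye and tissue cannot be told apart. Read in base 10, the highest value in the table (5.78) would need a ratio of 597130, beyond what the 65535 readings of a 16-bit scanner allow, so each fold is worked out both in base 2 and in natural logs. An exact 0 was read as no measurement, and 11086 probes (68.1%) were measured on all 3 arrays. Array medians lay at -0.028, -0.029 and -0.027. A ratio compares spleen with the reference and is not a level of the transcript in spleen. More cells of a type and more RNA per cell cannot be told apart in these bulk RNAs. The number of arrays limits the precision.

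Of the 8 enzyme genes 7 had positive ratios past the test and 1, Cel, did not pass (limma, ratio against 0, Benjamini-Hochberg adjusted p under 0.05 over 6077 genes). Over all genes tested 33.2% were called positive, 37.1% negative and 70.3% in either direction. The 8 genes were chosen with earlier results of these data known, so this count is a description. The median log ratio of the 8 genes was 4.16, with array medians of 4.20, 4.19 and 4.04, beside -0.033 over all genes. In the order of mean ratios over the 6077 genes Pnliprp2, Rnase1 and Ctrb1 stood at places 13, 14 and 15, Clps at 21, Cela3b at 26, Cpa1 at 54, Amy2a5 at 213 and Cel at 3553. Of the 59 probes in the table with a mean of 4 or more, 20 belonged to these enzymes, while none of the 10 highest probes did.

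**Figure D1:**
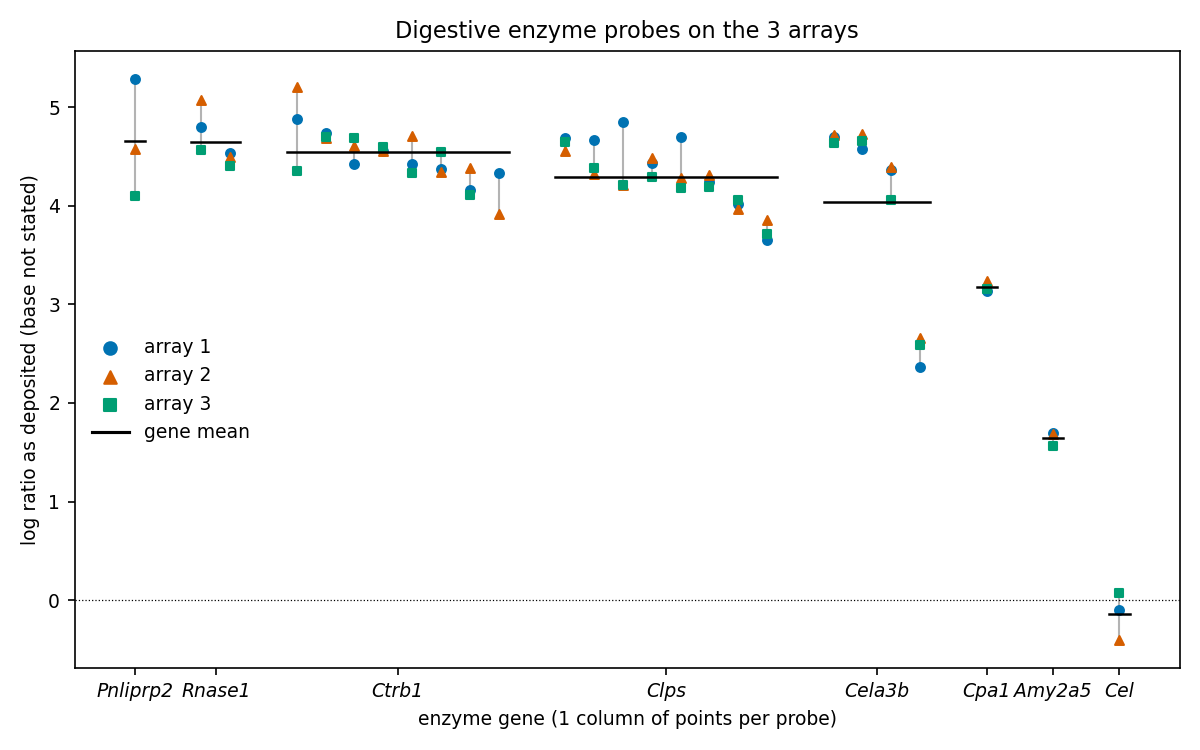
Log ratio as deposited (vertical axis) of each digestive enzyme probe with a measurement, 1 column of points per probe and 1 point per array, with genes ordered by their mean (black line). Most probes of Ctrb1, Clps, Cela3b and Rnase1 lie above 4, probe 16111 of Cela3b lies at 2.54, and the arrays of Cel lie on both sides of 0.

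Among the proteases, Ctrb1, a chymotrypsinogen that is cut by trypsin to active chymotrypsin, had gene means of 4.51, 4.64 and 4.47 on arrays 1 to 3. Its mean log ratio was 4.54 ± 0.089 (SD, n = 3), or 23.3-fold in base 2 and 93.8-fold in natural logs (limma adjusted p = 2.28e-08). All 3 arrays lay far from 0, and array 2 was the highest. The 7 probes of Ctrb1 measured on all arrays had means from 4.22 to 4.81. The SD between these probe means was 0.19, and the SD of single probes over arrays was 0.20 (root mean square). A mean over 3 arrays varies less than a single value. The 2 SDs therefore do not show that the probes agree within array variation. Of the other two Ctrb1 probes, probe 603 had 4.33 on array 1 and 3.92 on array 2 with 0 deposited for array 3, and probe 13328 had 0 on all 3 arrays.

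Cela3b, an elastase-family serine protease, had gene means of 4.001, 4.12 and 3.98, with a mean log ratio of 4.04 ± 0.077 (SD, n = 3; limma adjusted p = 2.93e-08). Its 4 probes did not give 1 value. The 3 probes on cDNA records had probe means of 4.69, 4.65 and 4.27, together 4.54 ± 0.082 (SD, n = 3 arrays). Probe 16111, the one annotated to a RefSeq transcript, read 2.37, 2.66 and 2.59, with a mean of 2.54 ± 0.15 (SD, n = 3). The difference between these probe groups was 2.18, 1.95 and 1.86 on arrays 1 to 3, or 2.00 ± 0.16 (SD, n = 3), which is above the spread between arrays. The SD between the 4 probe means was 1.02, against 0.13 within a probe.

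Cpa1, a carboxypeptidase that trims amino acids from the C-terminal end, was measured by 1 probe at 3.14, 3.24 and 3.15, the smallest spread among the 8 genes. Its mean log ratio was 3.18 ± 0.057 (SD, n = 3), or 9.04-fold in base 2 and 24.0-fold in natural logs (limma adjusted p = 5.76e-08). On every array it lay below all 3 gene means of Cela3b and above all 3 values of Cela3b probe 16111.

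Among the genes of fat digestion, Pnliprp2, a relative of pancreatic lipase, had the highest mean and the widest spread. Its 1 probe read 5.29, 4.58 and 4.10 on arrays 1 to 3, with a mean of 4.66 ± 0.60 (SD, n = 3; limma adjusted p = 1.33e-06), or 25.2-fold in base 2 and 105-fold in natural logs. Array 1 was the highest and array 3 the lowest, 1.18 apart. Clps, the cofactor that holds pancreatic lipase at the fat surface in the presence of bile salts, had gene means of 4.41, 4.25 and 4.21 over 8 probes, all measured on all arrays. Its mean log ratio was 4.29 ± 0.10 (SD, n = 3), or 19.5-fold in base 2 and 72.9-fold in natural logs (limma adjusted p = 2.93e-08). The probe means ran from 3.74 for probe 18023 to 4.63 for probe 7036, with an SD between probes of 0.28 against 0.19 within a probe. Array 1 stood above the other arrays most clearly at probe 887 (4.85, 4.22 and 4.21) and probe 7106 (4.70, 4.28 and 4.19).

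Cel, the bile salt-activated lipase that splits cholesterol esters and other fats, read -0.095, -0.40 and 0.075 on its 1 probe. The arrays lay on both sides of 0, and the mean of -0.14 ± 0.24 (SD, n = 3) did not pass (limma adjusted p = 0.227). The mean log ratio of Amy2a5, the next gene up in the order, was 1.79 ± 0.30 (SD, n = 3) above that of Cel. A ratio near 0 does not show whether the transcript was present in either RNA.

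Amy2a5, a pancreatic alpha-amylase, read 1.70, 1.68 and 1.56 on 1 probe. Its mean log ratio was 1.65 ± 0.074 (SD, n = 3), or 3.13-fold in base 2 and 5.19-fold in natural logs (limma adjusted p = 1.04e-06). The gene belongs to a cluster of closely related amylase genes in the mouse, so that a probe may read several copies. Rnase1, the secreted pancreatic ribonuclease, had gene means of 4.67, 4.78 and 4.49 over 2 probes, with a mean log ratio of 4.64 ± 0.15 (SD, n = 3; limma adjusted p = 3.12e-08). Probe 11699 had a mean of 4.81 ± 0.25 and probe 17843 a mean of 4.48 ± 0.067 (SD, n = 3 each), and their arrays did not overlap, since the lowest of the first, 4.57, was above the highest of the second, 4.53.

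The ratios of the 8 genes were not alike. Of the 28 pairs of enzymes, 23 had arrays that did not overlap and 5 overlapped, and 4 of these 5 involved Pnliprp2. The share without overlap over all pairs of genes was not worked out, so the count is not shown to be particular to these enzymes. In the order of means, Pnliprp2 was 0.012 ± 0.54 above Rnase1, and Rnase1 was 0.10 ± 0.080 above Ctrb1 (SD of the differences on each array, n = 3), and the arrays of each pair overlapped. Array by array, Rnase1 was above Ctrb1 on all 3 (0.16, 0.14 and 0.012), whereas Pnliprp2 was above Rnase1 on array 1 and below it on arrays 2 and 3. Ctrb1 was above Clps by 0.25 ± 0.15 and Cela3b above Cpa1 by 0.86 ± 0.025, in both cases with no overlap, though probe 16111 of Cela3b alone lay below Cpa1. Clps was above Cela3b by 0.25 ± 0.14 with no overlap, but the 3 cDNA-record probes of Cela3b alone gave 4.54, which is above Clps. Amy2a5 was 1.53 ± 0.080 below Cpa1. These differences are descriptions, since an exact sign-flip test over 3 arrays cannot give a two-sided p below 0.25, and an order of ratios is not an order of abundance.

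Other pancreatic enzymes and acinar genes were read from further lists. Of 19 other pancreatic digestive enzymes 6 had a probe and 5 were measured on all arrays. All 5 were positive past the test with a median of 3.40, beside 33.2% called positive over all genes. The chymotrypsin-like protease Ctrl averaged 4.38 ± 0.044 (SD of the log ratio, n = 3), the carboxypeptidase Cpb1 3.87 ± 0.043, the elastase Cela1 3.40 ± 0.16, the trypsinogen Try5 3.01 ± 0.12 and the phospholipase Pla2g1b 2.11 ± 0.089 (limma adjusted p from 2.28e-08 to 3.83e-07). Probes of a gene differed here as well, since the probe means of Cela1 were 4.18 and 2.61. Those of Pla2g1b ran from 0.20 to 2.53 over 8 probes. The trypsinogen Try4 had no probe measured on all arrays: probe 7160 read 5.02 and 4.82 on arrays 2 and 3, and probe 13309 read 4.83 and 4.97 on arrays 1 and 3. Trypsinogen genes share sequence, as do chymotrypsin-like and elastase-like proteases to a lesser degree, so single members are uncertain.

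Of 24 names on a list of acinar genes other than the digestive enzymes above 13 had a probe and 11 were measured. Among these 11 genes 9 were positive past the test and 2 missed the threshold, and the median log ratio was 2.60. The share called positive over all genes was 33.2%. Reg2, a secreted protein of the pancreas, averaged 5.22 ± 0.13 (SD of the log ratio, n = 3) and Gp2, a zymogen granule membrane protein, 4.80 ± 0.13. Serpini2, a serpin of the pancreas, had 3.42 ± 0.32 and the lectin-like Reg3a 3.27 ± 0.21. The probe means of Serpini2 ran from 2.32 to 4.14 and those of Reg3a from 3.21 to 3.35. Ptf1a, the acinar transcription factor, read 0.20, 0.62 and -0.21 and did not pass (limma adjusted p = 0.234), and its arrays lay on both sides of 0. The other gene that missed the threshold, Gatm, averaged 0.023 ± 0.068 (SD of the log ratio, n = 3; limma adjusted p = 0.760).

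Enzymes of like activity outside the acinar cell went both ways. Of 26 such genes 6 were measured, 2 of them positive and 4 negative past the test, with a median of -0.46. Over all genes 33.2% were called positive and 37.1% negative, so a mix of signs is not particular to this list. Rnase6, a ribonuclease of leukocytes, averaged 4.93 ± 0.035 (SD of the log ratio, n = 3), and each of its arrays was above all 3 gene means of Rnase1. The carboxypeptidase Cpe, which processes hormones and neuropeptides, had -2.41 ± 0.20, the membrane carboxypeptidase Cpm 1.01 ± 0.043 and the endothelial lipase Lipg -1.16 ± 0.14. Carboxypeptidases outside the acinar cell lay on both sides of 0, and the highest of them, Cpm, was below Cpa1 on every array.

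Genes of the islets and of neighbouring organs that were measured on all arrays had mean log ratios between -1.25 and 1.90. Beside the small counts given here, 33.2% of all genes were called positive and 37.1% negative. Of 4 measured islet genes the insulin gene Ins2 was positive at 1.02 ± 0.29 (SD, n = 3) and the glucagon gene Gcg negative at -0.38 ± 0.12, while Pdx1 (-0.20) and Chgb (-0.018) did not pass. Of 8 stomach genes 3 were positive, 1 was negative and 4 missed the threshold, and the median was 0.064. The highest was the trefoil peptide Tff2 at 1.04 ± 0.061 (SD, n = 3), above the pepsinogen Pgc at 0.58 and Tff1 at 0.56, and the lowest was Gkn2 at -0.67. The 4 probes of Tff1 ran from -0.42 to 2.99. The 1 liver gene measured on all arrays, the thyroid hormone carrier Ttr, had 1.90 ± 0.15 and the 1 intestinal gene, the disaccharidase Sis, -1.25 ± 0.15, while no gene of the fat list had a probe. The liver gene Fgb, a fibrinogen chain, read higher than these, at 3.08 and 2.79 on arrays 1 and 2, with 0 deposited for array 3. Their part in the enzyme ratios was not tested.

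**Figure D2:**
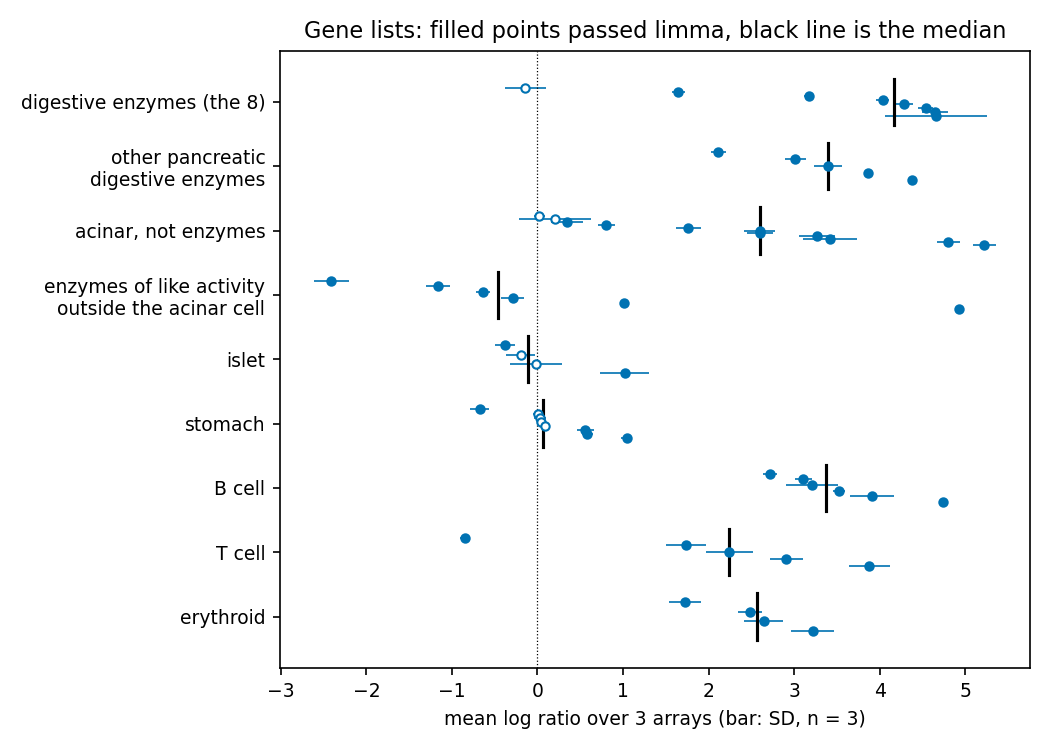
Mean log ratio over 3 arrays (horizontal axis, bars SD) of each measured gene, by list, with filled points for genes past the limma test and a black line at the list's median. The 8 digestive enzymes have a median of 4.16 and other pancreatic digestive enzymes 3.40. Acinar genes other than digestive enzymes, labelled as not enzymes, have 2.60, and stomach genes 0.064.

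The labelled tissue was checked against its markers. All 6 measured B cell genes were positive past the test, with a median of 3.37, as were all 4 erythroid genes with a median of 2.56 and the 1 red pulp macrophage gene measured, the iron exporter Slc40a1, at 4.24. Of 5 T cell genes 4 were positive and 1 negative, with a median of 2.24. The negative one, Cd3d, had -0.85 ± 0.059 (SD of the log ratio, n = 3; limma adjusted p = 2.25e-05). Beside these list counts, 33.2% of all genes were called positive and 37.1% negative. The heavy chain gene Igha at 4.74 ± 0.030 and the complement receptor Cr2 at 3.91 ± 0.26 (SD, n = 3) were the highest of the B cell genes, and Cd8a at 3.88 ± 0.24 the highest of the T cell genes. The median ratio of the 8 enzymes was thus above those of the B cell, T cell and erythroid lists, though a ratio against this reference is no measure of amount in spleen. The enzymes and the lists were chosen with earlier results of these data known, so this order is a description.

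The spread between arrays differed among the enzyme probes. Of the 27 probes 25 were measured on all 3 arrays, and their SD ran from 0.020 for probe 8658 of Ctrb1 to 0.60 for Pnliprp2, with a median of 0.11 beside 0.12 over all 11086 probes. An SD above the median of all probes was found for 12 of the 25 and one below it for 13. The SD of Pnliprp2 was above that of 99.5% of all probes and of 97.3% of the 150 probes with an absolute mean of 3 or more, whose median SD was 0.16. Probe 8725 of Ctrb1 (4.88, 5.20 and 4.35; SD 0.43) was above 98.1% of all probes and probe 887 of Clps (SD 0.37) above 96.4%. Of these 25 probes 24 were called positive, against 32.3% of all probes, with limma adjusted p from 6.69e-08 to 2.48e-06.

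**Figure D3:**
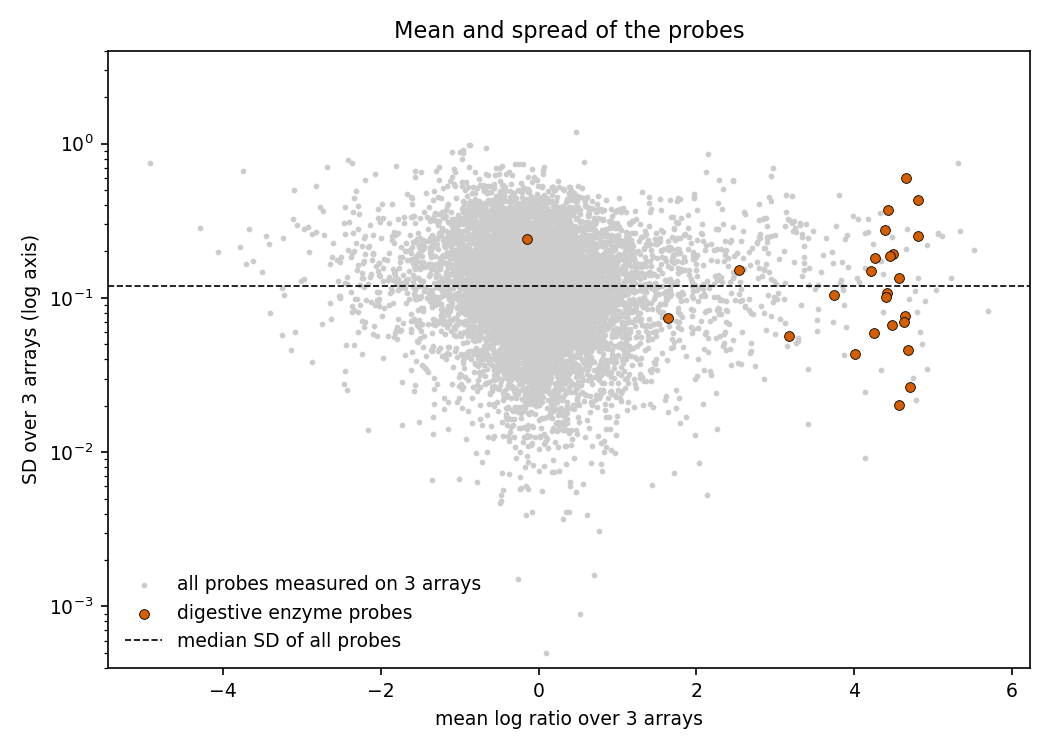
SD over 3 arrays (vertical log axis) against mean log ratio for 11086 probes, with the 25 digestive enzyme probes in orange and the median SD of all probes as a dashed line. The enzyme probes lie on both sides of the line, from 0.020 to 0.60.

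On array 3 these enzymes mostly lay below their own means. Of the 8 genes 7 lay below their own mean on array 3, Cel being the exception, and 17 of the 25 probes did, with a median deviation of -0.057. On array 1 14 probes lay above their mean (median 0.016) and on array 2 15 did (median 0.036). The 128 probes of the table with a mean of 3 or more, the enzymes among them, had median deviations of 0.035, 0.047 and -0.066 on arrays 1 to 3. Lower values on array 3 were therefore present over these 128 probes as a whole. Their median without the enzymes was not worked out. The median deviation over all probes was 0.010 on array 3.

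**Figure D4:**
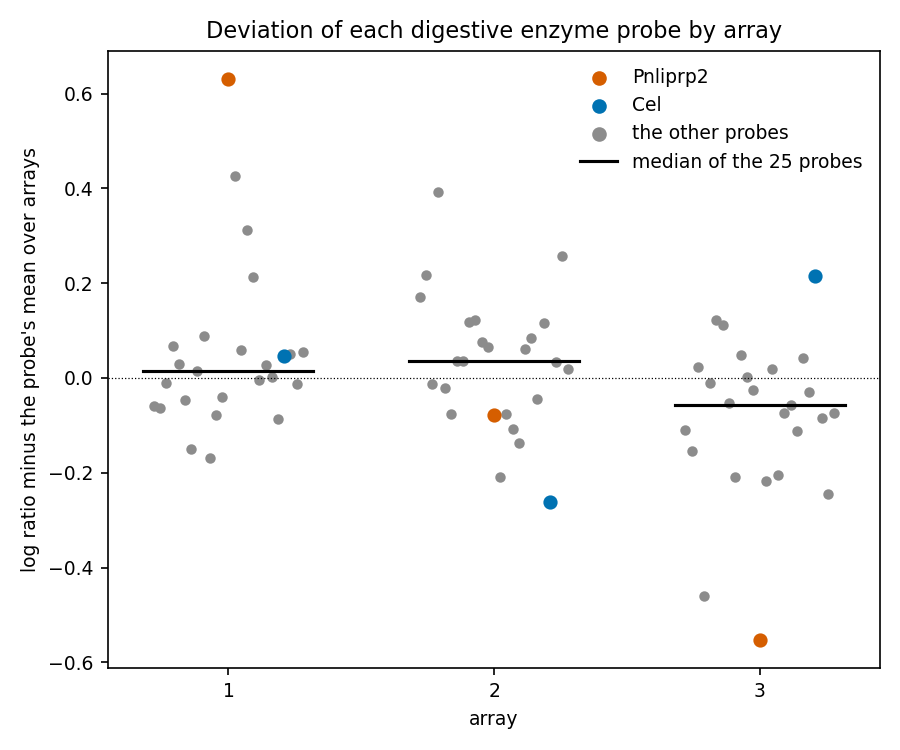
Log ratio minus the probe's own mean over the arrays (vertical axis) for the 25 digestive enzyme probes measured on all 3 arrays, with black lines at the median of each array. Pnliprp2 lies at 0.63 on array 1 and -0.55 on array 3, and the median is -0.057 on array 3.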

How the data were processed

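Spleen RNA was compared with a reference RNA on 3 arrays, each in 2 colours. The authors deposited 1 table of signed log ratios, for which neither the labels nor the table state base, numerator, background correction or normalization. Base 2 had been assumed for the design, and the values were tested as deposited. Exact 0 was set to missing, and probes measured on all 3 arrays were kept. Probes with 1 gene symbol in the supplied platform annotation were averaged into 6077 genes, 1491 of them from more than 1 probe. The test was an intercept fit in limma (version 3.58.1, R 4.3.3) with moderated variance, two-sided against a ratio of 0, and p-values were adjusted by Benjamini-Hochberg over the whole table with a threshold of 0.05. The script was tested on simulated data. Promoter sequences and chromosomes came from RefSeq tables of build GRCm38.p6. The members and the gene lists were chosen with earlier results of these data known. The named genes are the members and the other digestive enzymes measured on all arrays. Up to 4 genes of each other list with the largest absolute mean are named as well. Try4, Fgb, Ptf1a, Gatm and Cd3d were added after their values were seen. Plots used matplotlib 3.10.9 (Python 3.11.15). Alternatives covered normalization, the handling of 0, a trend along probe numbers, the moderation, the threshold, the combination of probes and leaving out each array.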

Additional observations from a re-analysis of the deposited data

How the results depend on the processing

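The count of 7 positive enzymes of 8 was the same under all 15 alternatives run for it, and each of the 7 kept its call in all 80 alternative fits of single enzymes, including single probes. Cpa1, Pnliprp2, Amy2a5 and Cel have 1 probe each, so their single-probe fits repeat the main log ratios. Cel was called in 0 of 9, and its log ratio lay above 0 once. That value was 0.0066, with a running median subtracted that took in 10 probe numbers on either side (limma adjusted p = 0.950). Over the alternatives for Cel the limma adjusted p ran from 0.0533, without array 3, to 0.950. The fit without array 3 gave Ctrb1 a limma adjusted p of 1.04e-295, against 2.58e-07 without array 2. Adjusted p-values without array 3 therefore carry little weight. The median of the 8 genes was 3.94 with 0 kept as a value, 4.64 with the probe of largest absolute mean and 4.40 with the median probe, and 4.14 to 4.20 with an array left out. With 0 kept Ctrb1 fell to 3.84, because probe 13328, at 0 on all arrays, and probe 603, at 0 on array 3, then enter its mean. Over all genes the calls were 2770 without moderation (1395 negative) and 1208 against a 1.5-fold change in base 2 (626 positive, 582 negative), and over all probes 4609 and 2104. Among enzymes of like activity, 1 was positive with 0 kept and 2 were negative against a 1.5-fold change. Positive islet genes numbered 2 with probes measured on at least 2 arrays and 0 without moderation. Against a 1.5-fold change 1 stomach gene was positive and 0 negative, and negative stomach genes numbered 0 with 0 kept and 2 both with the running median and with the probe of largest absolute mean. Apart from the settings whose construction shows it, the cause was not tested. No paired analysis was possible because the arrays form 1 group. Signal over background is unknown, since no intensities were used here.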
